A study of Mus musculus with 36 samples.

Results

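The genes examined here are Rtp1, Rtp2, Reep1, Atf5, Eif2ak3 and Kdm1a, 6 of the 24565 genes with values in the MOE tables, chosen by name because they carry olfactory receptors to the cell surface or take part in the feedback that holds the choice of a receptor. For each gene, the FPKM of its RefSeq transcripts was summed in each library, FPKM being the count of fragments scaled to transcript length and to the mapped fragments of the library. The 36 RNA-seq libraries covered the main olfactory epithelium (MOE), the vomeronasal organ (VNO) and the olfactory bulb (OB) of C57BL/6 mice aged 6 months, with 12 libraries per tissue. Each tissue had 3 libraries from each of 4 groups. Females and males that lived apart from the other sex are called SF and SM (sex-separated), and those that shared cages with it CF and CM (sex-combined). The mice were weaned at 3 weeks and kept 4 to a cage. A library is a pool of total RNA, for which the labels give 2 mice and the paper's text another number, so that the replicates are pools and not single animals.

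An olfactory sensory neuron of the MOE expresses a single odorant receptor, while vomeronasal sensory neurons express vomeronasal receptors of other families. Odorant receptors leave the endoplasmic reticulum poorly on their own. The transmembrane proteins RTP1 and RTP2 (receptor transporting proteins) accompany them to the plasma membrane, and REEP1 (receptor expression enhancing protein) is a membrane-shaping protein of the endoplasmic reticulum that was found in the same search. Once a receptor protein is made, the kinase PERK, encoded by Eif2ak3, senses it in the endoplasmic reticulum and phosphorylates the translation factor eIF2alpha, which permits translation of the transcription factor ATF5. ATF5 in turn leads to expression of adenylyl cyclase 3 (Adcy3), and the histone demethylase LSD1, encoded by Kdm1a, is then shut down, which ends the search for a receptor. Much of this feedback runs through phosphorylation and translation, which RNA levels do not measure.

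The tissues carried the markers of their labels. Omp, a protein of mature olfactory and vomeronasal sensory neurons, averaged 983 ± 149 FPKM in the MOE (SD, n = 12), 101 ± 12.5 in the VNO and 35.1 ± 4.38 in the OB. Trpc2, the channel of vomeronasal neurons, averaged 43.0 FPKM in the VNO and 0.938 in the MOE, and Gad1, an enzyme of inhibitory neurons, averaged 180 FPKM in the OB against 0.236 in the MOE. The confidence limits of the FPKM values imply 3016524 to 6779893 fragments per library. These are not the sequencing depth, since the study lists more aligned read pairs for each library. In the MOE, SF pool 2 and CM pool 3 stood apart. The summed FPKM of 9 mature olfactory sensory neuron markers was 1860 and 1600 in them against 2290 to 2850 in the other 10 libraries. CM pool 3 was low in most other lists as well. Against the median of the other 10, sustentacular (supporting) cell markers were at 61.0% and nasal gland markers at 62.1%. Ciliated respiratory cell markers were at 58.1% and plasma cell markers at 62.0%, but erythroid cell markers were at 84.0% and neutrophil markers at 126%. In SF pool 2, sustentacular and ciliated cell markers were at 91.0% and 93.5%, while the summed FPKM of 5 nasal gland markers was 32200 against at most 15600 in the other 10. CM pool 3 also had the fewest implied fragments of the 36 libraries, 3016524, and the lowest sum of FPKM, 290746. The study lists the lowest share of aligned reads for it. The part of library quality in these levels was not tested. In a bulk sample, fewer cells of a type and less RNA per cell cannot be told apart.

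Differences between tissues and between groups were tested with limma on log2(FPKM + 0.5), with Benjamini-Hochberg adjustment over all genes tested. All 6 genes differed between MOE and VNO, 5 higher in the MOE and 1 (Eif2ak3) lower. Differences between these organs are the rule, since 48.6% of 14596 genes tested were called higher in the MOE and 34% lower. Between MOE and OB, 4 of the 6 were higher in the MOE (45.7% of all genes) and Reep1 was lower (39.3% of all genes), while Kdm1a did not pass the test. Between VNO and OB, 4 were higher in the VNO (37.8% of all genes), and Reep1 and Kdm1a were lower (48% of all genes). The median log2 difference over all genes was 0.147 for MOE minus VNO, 0.066 for MOE minus OB and -0.124 for VNO minus OB.

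**Figure D1:**
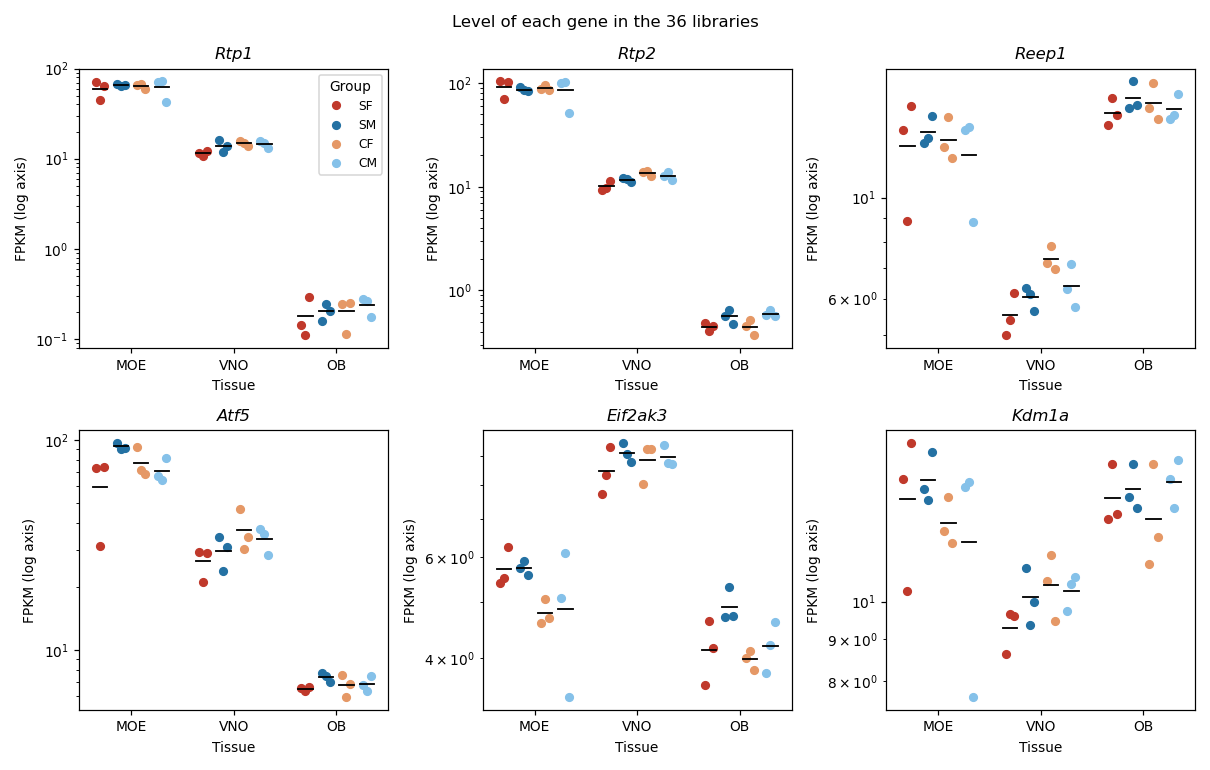
FPKM (log axis) of the 6 genes in each of the 36 libraries, by tissue and by group (colours), with bars at the group means of 3 pools. Rtp1 and Rtp2 fell from MOE to VNO to OB without overlap, Reep1 was lowest in the VNO, and Eif2ak3 was highest there.

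The receptor transporters showed the widest differences between tissues. Rtp1, at chr16:23429206-23434033 of mm9, ranged from 43.0 to 72.3 FPKM in the MOE with a median of 65.7, from 10.8 to 16.3 in the VNO with a median of 13.7, and from 0.11 to 0.292 in the OB with a median of 0.225. Rtp2, at chr16:23925634-23930880, ranged from 51.5 to 104 FPKM in the MOE (median 89.7), from 9.28 to 14.3 in the VNO (median 12) and from 0.37 to 0.647 in the OB (median 0.499). For both genes the 3 tissues did not overlap, and within a tissue the ranges of groups that were neighbours in the order of means overlapped throughout. The difference between MOE and VNO on the log2 scale was 2.15 (SE 0.0797, adjusted p = 1.53e-20) for Rtp1 and 2.81 (SE 0.0819, adjusted p = 3.37e-23) for Rtp2, which is 4.43-fold and 7.0-fold. Between MOE and OB the log2 differences were 6.48 for Rtp1 and 6.44 for Rtp2, a scale on which the added 0.5 understates the change of such low genes. As plain means of FPKM, the OB level was 0.327% of the MOE level for Rtp1 and 0.58% for Rtp2.

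Even in the OB, both transcripts lay above the floor of 3 fragments. The Rtp1 values there rested on an estimated 5.0 to 16.0 fragments per library and the Rtp2 values on 11.9 to 25, so that counting error alone is large at these levels. The OB level of Omp was 3.57% of its MOE level, which is above the percentages of both transporters. Adcy3, at 4.92%, and Stoml3 (a membrane protein of olfactory cilia), at 1.51%, were above both as well. Cnga2 (the olfactory cyclic nucleotide-gated channel subunit) was below both, at 0.282%. So was Cnga4, a further channel subunit, with 71.3 FPKM in the MOE and 0.206 in the OB. In the VNO, Rtp1 reached 21.8% and Rtp2 13.7% of the MOE level. Omp reached 10.3% there, Cnga2 1.02%, Stoml3 2.02% and Adcy3 5.97%. Each of these 4 markers was thus at a lower percentage in the VNO than Rtp1 and Rtp2, though Omp marks vomeronasal neurons as well. Among the other mature olfactory sensory neuron markers, Cngb1 alone was at a higher percentage than Rtp2. It had 2.69 FPKM in the VNO and 16.0 in the MOE, a lower percentage than that of Rtp1.

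**Figure D2:**
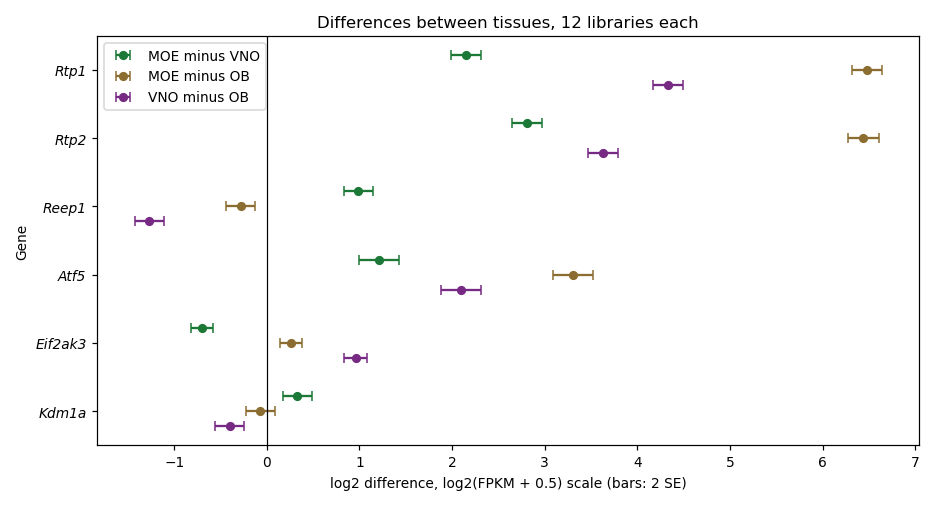
Log2 differences between tissues for the 6 genes on the log2(FPKM + 0.5) scale, as points with bars of 2 SE, from 12 libraries per tissue. Rtp1 and Rtp2 lie between 6.44 and 6.48 for MOE minus OB, whereas Kdm1a stays between -0.40 and 0.33 in all 3 comparisons.

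The balance of the 2 transporters differed between the tissues. The ratio of Rtp1 to Rtp2 FPKM ranged from 0.621 to 0.835 in the MOE (mean 0.719 ± 0.0606, SD, n = 12), from 1.01 to 1.35 in the VNO (1.15 ± 0.102) and from 0.217 to 0.676 in the OB (0.412 ± 0.15). Rtp2 was therefore the higher of the pair in each MOE and OB library, and Rtp1 in each VNO library. In two-sided permutation tests of the log2 ratio with 100000 resamples, chosen after the values had been seen, MOE and VNO differed by -0.671 (adjusted p = 3e-05 over 12 tests of ratios) and VNO and OB by 1.56 (adjusted p = 3e-05), both at the smallest unadjusted p the resamples can give, 2e-05. The OB ratio rests on the few fragments given above. The mouse transcripts of the pair share no stretch of 50 bases, the read length, and their longest shared stretch is 47 bases, so that whole reads from one do not match the other exactly.

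Relative to Omp, the order of the nasal tissues turned. Rtp1 came to 6.42% ± 0.402 of the Omp level in the MOE (range 5.69 to 7.0%) and to 13.6% ± 0.662 in the VNO (12.6 to 14.8%), and Rtp2 to 8.97% ± 0.645 and 12% ± 1.15. Both were higher in the VNO on this scale, with log2 differences for MOE minus VNO of -1.08 and -0.413 (permutation tests, adjusted p = 3e-05 for each). SF pool 2 and CM pool 3 of the MOE, which had the lowest FPKM of both transporters, lay within the range of the other MOE libraries for Rtp1 on this scale.

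**Figure D3:**
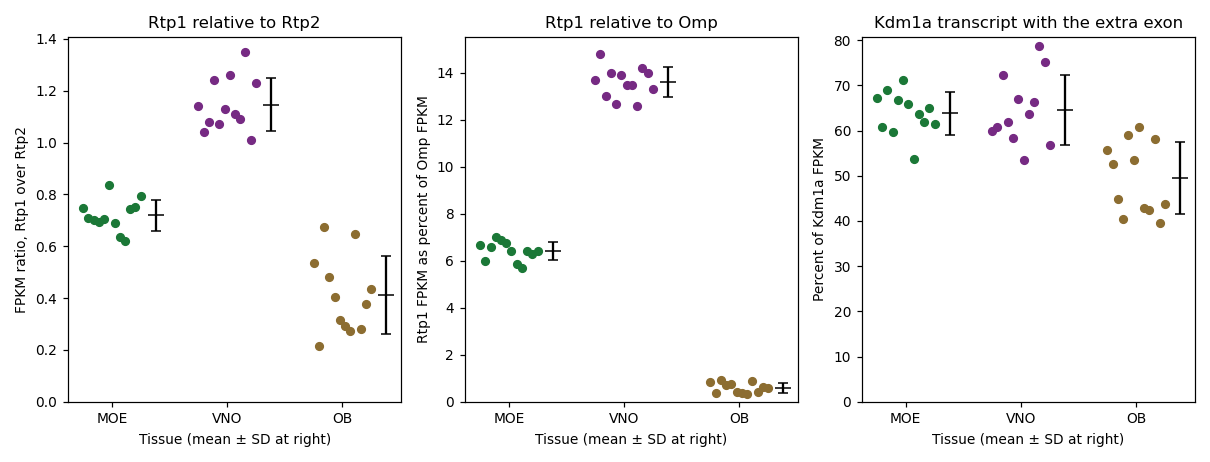
Ratios within each library by tissue, namely Rtp1 over Rtp2, Rtp1 as percent of Omp, and the percent of Kdm1a FPKM assigned to the transcript with the extra exon. Each point is 1 library, and the mark at the right of a tissue is the mean with the SD of 12. The VNO points of the first panel all lie above 1.

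Reep1, at chr6:71657675-71760699 of mm9, had another pattern. It ranged from 8.86 to 15.9 FPKM in the MOE (median 13.8), from 4.99 to 7.83 in the VNO (median 6.24) and from 14.4 to 18.0 in the OB (median 15.7). The VNO libraries were all below those of the other tissues, while MOE and OB overlapped. The log2 difference was 0.99 for MOE minus VNO (SE 0.0783, adjusted p = 1.37e-12), -0.28 for MOE minus OB (SE 0.0783, adjusted p = 0.00154) and -1.27 for VNO minus OB (adjusted p = 1.8e-15). Among the 3 trafficking genes Reep1 was thus the one with an OB level above that of the MOE.

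Among 8 related trafficking genes (other RTP and REEP proteins, and Ric8b, a chaperone of the olfactory G protein), 6 were abundant enough to be tested between tissues. Of these, 1 was higher and 5 were lower in the MOE than in the VNO (48.6% and 34% of all genes). The median log2 difference was -0.40, against 0.147 over all genes. Ric8b was the one that was higher, at 129 ± 21.6 FPKM in the MOE against 3.82 ± 0.588 in the VNO (log2 difference 4.89, adjusted p = 5.28e-29). Rtp4, an interferon-induced relative of Rtp1, was lower, at 1.92 against 5.95 FPKM (log2 difference -1.43, adjusted p = 1.68e-15), as was Reep5, at 8.31 against 22 FPKM. Reep2, a neuronal REEP protein, was an OB transcript, with 12.1 FPKM there against 0.094 in the MOE and 0.156 in the VNO. Reep2 was abundant enough to be tested only through its OB level. Its place among the 5 lower genes and in the median therefore rests on very low levels in both nasal tissues. Against the OB, 4 of the 6 were higher in the MOE (45.7% of all genes) and 2 were lower (39.3% of all genes). Rtp3 averaged at most 0.0116 FPKM in any tissue.

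On the feedback side, the kinase and the transcription factor behind it moved in opposite directions between MOE and VNO. Eif2ak3, at chr6:70794509-70855235 of mm9, ranged from 3.42 to 6.24 FPKM in the MOE (median 5.47), from 7.72 to 9.48 in the VNO (median 8.92) and from 3.59 to 5.31 in the OB (median 4.19). Each VNO library was above all others. The log2 difference was -0.70 for MOE minus VNO (SE 0.0611, adjusted p = 1.2e-11), 0.96 for VNO minus OB (adjusted p = 3.9e-15) and 0.26 for MOE minus OB (adjusted p = 0.000273), the last with overlapping ranges. All of the FPKM was on NM_010121, while the shorter NM_001313918 was listed at 0 in all 36 libraries.

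Atf5, at chr7:52067626-52072028 of mm9, ranged from 31.2 to 96.4 FPKM in the MOE (median 73.9), from 21.1 to 46.6 in the VNO (median 30.5) and from 5.95 to 7.78 in the OB (median 6.83). A single MOE library, SF pool 2, reached down into the VNO range. The log2 difference was 1.21 for MOE minus VNO (SE 0.108, adjusted p = 2.14e-11), 3.31 for MOE minus OB (adjusted p = 1.75e-22) and 2.1 for VNO minus OB (adjusted p = 2.34e-17). The FPKM of Atf5 was 14.7 ± 4.57 times that of Eif2ak3 in the MOE, 3.60 ± 0.841 times in the VNO and 1.62 ± 0.178 times in the OB.

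The Atf5 values depend on how fragments were assigned to its 2 annotated transcripts. Cufflinks gave all of the FPKM to NR_033136, whose first exon of 257 bases is the upstream one, and listed NM_030693, with a nearer first exon of 177 bases, at 0 in all 36 libraries. In GENCODE both have 3 exons and the same coding length of 849 bases. The 250 bases before each of the 2 start sites are shown because the choice between them is the one the transcript assignment makes. They were taken from RefSeq promoters on GRCm38.p6, on the minus strand, at chr7:44816659-44816908 for the upstream start and chr7:44815659-44815908 for the nearer one, and capitals mark a match to a CCAAT box.
Atf5 upstream start: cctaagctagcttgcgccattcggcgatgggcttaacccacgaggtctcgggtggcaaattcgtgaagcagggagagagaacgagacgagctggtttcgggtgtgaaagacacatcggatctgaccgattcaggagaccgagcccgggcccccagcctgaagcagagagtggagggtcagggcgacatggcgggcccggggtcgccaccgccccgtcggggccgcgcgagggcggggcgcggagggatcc
Atf5 nearer start: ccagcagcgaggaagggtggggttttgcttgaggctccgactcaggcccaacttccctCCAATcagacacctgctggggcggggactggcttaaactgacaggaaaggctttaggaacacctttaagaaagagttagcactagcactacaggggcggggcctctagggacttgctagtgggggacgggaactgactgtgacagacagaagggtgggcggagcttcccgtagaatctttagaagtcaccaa
Among 4 motifs searched on both strands of the 300 bases around each Atf5 start, this was the one match. CCAAT, a common promoter element, occurs in 37.4% of 32851 promoters. The Ebf site TCCCNNGGGA (0.904% of promoters), the homeodomain core TAATTA (5.29%) and the composite site TGATGNAA bound by ATF and C/EBP proteins (3.97%) had no match at either start, and none at the start of Rtp2. TGATGNAA had 1 match among the members with a RefSeq promoter, at -192 from the start of Kdm1a, and CCAAT also matched at Kdm1a (1 match) and Eif2ak3 (6 matches). The Atf5 locus overlaps Nup62 (a nuclear pore protein), which was listed at 0 in 11 of the 12 MOE libraries and 1 of the 12 VNO libraries but at 2.79 to 3.87 FPKM in the OB, so that the division of fragments between these 2 loci is uncertain.

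Of 14 further genes of the eIF2alpha pathway, 7 were higher and 6 were lower in the MOE than in the VNO (48.6% and 34% of all genes). The median log2 difference was 0.12, against 0.147 over all genes. Trib3, a stress-induced pseudokinase, was 3.76 FPKM in the MOE and 1.59 in the VNO (log2 difference 1.03, adjusted p = 1.06e-11). Atf4, a transcription factor whose translation is likewise permitted by phosphorylated eIF2alpha, was 54.7 ± 8.39 FPKM against 32.6 ± 2.95 (log2 difference 0.72, adjusted p = 1.06e-09). Asns (asparagine synthetase), an ATF4 target, went the other way, with 15.6 FPKM in the MOE and 24.4 in the VNO (log2 difference -0.67). The other eIF2alpha kinases Eif2ak2 and Eif2ak4 were lower in the MOE as well (log2 differences -0.45 and -0.34), while Eif2ak1 did not pass the test (-0.05, adjusted p = 0.479). Against the OB, 8 of the 14 were higher in the MOE and 5 were lower (45.7% and 39.3% of all genes). The median was 0.56 against 0.066 over all genes, with Nfe2l2, a transcription factor of the oxidative stress response, at 3.32 and Trib3 at 2.69.

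Genes of the other branches of the unfolded protein response were mostly lower in the MOE than in the VNO, as Eif2ak3 was. Of 17 genes, 13 were lower (34% of all genes), 2 were higher (48.6% of all genes) and 2 did not pass the test. The median log2 difference was -0.43, against 0.147 over all genes. Syvn1, an ubiquitin ligase of the endoplasmic reticulum, had a log2 difference of -1.77. Its MOE level was low and uneven, at 0.513 ± 0.54 FPKM against 2.5 ± 0.35 in the VNO. Edem1 (which delivers misfolded glycoproteins for degradation) had a difference of -1.67, the chaperone cofactor Sdf2l1 one of -1.51 and the stress sensor Ern1 one of -1.28. The chaperone Hspa5 was 128 ± 21.5 FPKM in the MOE against 160 ± 16.0 in the VNO (log2 difference -0.34, adjusted p = 0.00133). Dnajb9 and Canx were the 2 that were higher, by 0.69 and 0.20. Against the OB, 16 of the 17 were higher in the VNO (37.8% of all genes), with a median of 1.2 against -0.124 over all genes. In the MOE, 14 were higher than in the OB (45.7% of all genes) and 1 was lower (39.3% of all genes). The median there was 0.77 against 0.066 over all genes. Herpud1, of the degradation complex of the endoplasmic reticulum, had a log2 difference of 2.56 for VNO minus OB. Plasma cells and gland cells are rich in this machinery, and the VNO libraries held more plasma cell marker RNA (summed FPKM of 5 genes 14.1 to 58.2, against 3.42 to 14.2 in the MOE) and less of the nasal gland markers (2330 to 4000 for 6 genes, against 8260 to 32200 for 5). The part of these cells in the differences was not tested.

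Kdm1a, at chr4:136106448-136158638 of mm9, varied least between tissues. It ranged from 7.65 to 15.6 FPKM in the MOE (median 13.5), from 8.63 to 11.4 in the VNO (median 9.85) and from 11.1 to 14.9 in the OB (median 13.2), and the 3 ranges overlapped. The log2 difference was 0.33 for MOE minus VNO (SE 0.0774, adjusted p = 0.00031), but it was 0.04 after upper quartile scaling and -0.02 after quantile normalization, and did not pass the test under either. For VNO minus OB it was -0.40 (adjusted p = 2.68e-05), but -0.05 (adjusted p = 0.146) after quantile normalization and -0.02 (adjusted p = 0.848) with only the highest transcript. Between MOE and OB it was -0.07, with an interval of 2 SE from -0.22 to 0.08 (adjusted p = 0.413), and its direction turned to 0.07 with library weights and to 0.29 with only the highest transcript.

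Between the OB and the nasal tissues, the division between Kdm1a transcripts differed. The FPKM was divided between NM_001347221, which contains an extra coding exon of 60 bases as exon 3, and NM_133872, which lacks it, while another transcript, NM_001356567, was listed at 0 in all MOE and VNO libraries and in 11 of the 12 OB libraries. The exon, at chr4:136582040-136582099 of GRCm38 on the minus strand, adds 20 codons, and its junctions are shown because they are what tells the 2 forms apart. Both lines give GENCODE transcript sequence with 15 bases of the neighbouring exons on each side, and capitals mark the extra exon.
Kdm1a with the exon: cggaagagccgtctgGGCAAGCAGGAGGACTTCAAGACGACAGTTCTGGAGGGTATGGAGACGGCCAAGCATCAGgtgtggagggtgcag
Kdm1a without the exon: cggaagagccgtctggtgtggagggtgcag
The form with the exon took 53.8 to 71.3% of Kdm1a FPKM in the MOE (mean 63.9% ± 4.72, SD, n = 12), 53.4 to 78.7% in the VNO (64.5% ± 7.67) and 39.5 to 60.9% in the OB (49.5% ± 7.93). The OB was lower than the MOE by 14.4 percentage points (adjusted p = 5.33e-05) and lower than the VNO by 15 (adjusted p = 0.000153, permutation tests over libraries, chosen after the values had been seen), although single libraries overlapped. Between MOE and VNO the difference was -0.674 percentage points (adjusted p = 0.795). The division rests on reads of 50 bases that touch a short exon, and Cufflinks estimated it.

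Of 13 genes of LSD1 complexes, 11 were abundant enough to be tested. Of these, 3 were higher and 6 were lower in the MOE than in the VNO (48.6% and 34% of all genes). The median log2 difference was -0.21, against 0.147 over all genes. Against the OB, 5 were higher and 5 were lower in the MOE (45.7% and 39.3% of all genes, median -0.01). The histone deacetylase Hdac1 had a log2 difference of 1.03 there and Phf21a, a reader of unmethylated histone H3, one of -0.97. The histone deacetylase Hdac2 was highest in the MOE, at 34.5 ± 5.91 FPKM against 14.6 ± 1.11 in the VNO and 24 ± 2.49 in the OB. On average it exceeded Kdm1a in all 3 tissues (Kdm1a means 12.9, 10.1 and 13.4 FPKM). Kdm1b, the second LSD-type demethylase, was 2.16 FPKM in the MOE and 4.70 in the VNO (log2 difference -0.99, adjusted p = 7.14e-13). The scaffold protein Rcor1 was low in all 3 tissues, between 1.99 and 3.46 FPKM on average. Gfi1 and Gfi1b, which recruit LSD1 in blood cells, averaged at most 0.172 FPKM.

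Among 19 further genes tied to receptor choice, 12 were higher and 5 were lower in the MOE than in the VNO (48.6% and 34% of all genes). The median log2 difference was 0.34, against 0.147 over all genes. Against the OB, 13 were higher and 5 lower in the MOE (45.7% and 39.3% of all genes), with a median of 0.71 against 0.066. Adcy3, the cyclase that closes the feedback, was 110 ± 19.8 FPKM in the MOE, 6.58 ± 0.985 in the VNO and 5.43 ± 0.453 in the OB. The log2 difference of Adcy3 for MOE minus VNO was 3.96 (adjusted p = 8.24e-28), against the 1.21 of Atf5. Ebf4, of the Ebf family of transcription factors that act on receptor genes, had a log2 difference of 3.46 for MOE minus VNO and Ebf2 one of 5.31 for MOE minus OB. Lhx2, the homeodomain factor of olfactory neurons, was 16.0 ± 2.31 FPKM in the MOE against 4.87 ± 0.621 in the VNO. Nfix and Nfia, of the nuclear factor I family, were lower in the MOE than in the VNO, by log2 differences of -0.93 and -0.83. The histone methyltransferases Ehmt1 and Ehmt2 were lower in the MOE than in the OB (log2 differences -0.45 and -0.93), as was the transcription factor Bcl11b (-1.37).

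Within the MOE, most of the 6 genes varied together, and SF pool 2 and CM pool 3 set much of that. Over the 12 MOE libraries, Pearson's r on the log2 scale was 0.91 between Rtp1 and Rtp2, 0.91 between Rtp1 and Reep1 and 0.87 between Rtp1 and Kdm1a, and without the 2 libraries it was 0.66, 0.31 and 0.34 over 10. These genes share libraries, depth and cell composition, so that the values are descriptions. CM pool 3 was low against the median of the other 10 libraries. Rtp1 was at 64.4%, Rtp2 at 55.0%, Reep1 at 62.7%, Eif2ak3 at 62.1% and Kdm1a at 55.6%. Mature neuron markers were at 61.4%, and most other cell type lists were low as well. Atf5 stood at 110% there, and neutrophil markers at 126%. In SF pool 2, Atf5 was at 42.2%, below Rtp1 (66.8%), Rtp2 (75.1%) and the markers (71.4%), while Eif2ak3 was at 100%. Atf5 thus did not follow the other genes in either library, and its r with Omp was 0.36 over 12 libraries and -0.04 over 10, against 0.93 and 0.54 for Rtp1. In the VNO, r with Omp over 12 libraries was 0.93 for Rtp1 and 0.90 for Atf5.

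**Figure D4:**
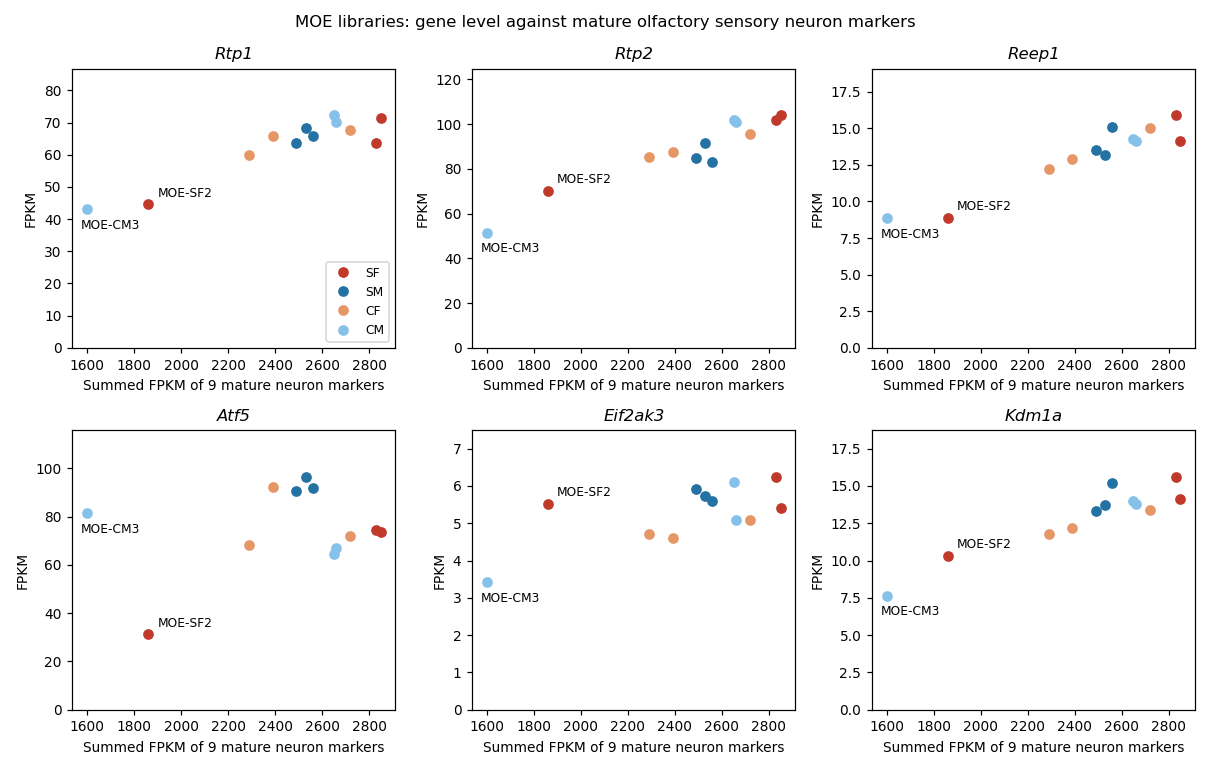
FPKM of each gene in the 12 MOE libraries against the summed FPKM of 9 mature olfactory sensory neuron markers, with groups in colour and the 2 libraries of lowest sum named. In 5 of the panels CM pool 3 is the lowest point, whereas its Atf5 level of 81.6 FPKM lies among the other libraries and SF pool 2 is lowest there at 31.2.

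The study asked whether life with or without the other sex changes the olfactory tissues, and sex and housing were therefore compared within each tissue. None of the 6 genes passed the test in any of 12 comparisons, which comprised 68 tests by limma (5 genes in the OB, where Rtp1 lay below the filter of a mean FPKM of 0.5), 11 of them with an unadjusted p under 0.05. Few genes of any kind did when libraries were weighted equally. For SF minus SM, 0.102% of the genes tested were called in the MOE, 0.0724% in the VNO and 0.0391% in the OB. For CF minus CM the shares were 0.0437%, 0.0434% and 0.047%. For the difference of these sex effects between the housings they were 0.0364%, 0% and 0.00783%, and for sex-combined minus sex-separated mice 0.102%, 0% and 0.00783%. With libraries weighted by their fit, the counts were far larger in some comparisons, with 1817 genes in place of 14 for SF minus SM and 2417 in place of 5 for the difference of sex effects in the MOE, and 1402 in place of 5 for SF minus SM in the OB. Where no gene was called, 730 genes (difference of sex effects) and 1050 genes (housing) of 13817 in the VNO had an unadjusted p under 0.05. Of the 71 genes of the pathway lists, 68 were tested in at least 1 tissue, and none passed by limma in 780 tests, 38 of them with an unadjusted p under 0.05. The median log2 difference over all genes was 0.1 for CF minus CM, -0.119 for the difference of sex effects and -0.118 for housing in the MOE, which bears on values of that size there.

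In the MOE, the FPKM of the transporters overlapped between the sexes in either housing. Rtp1 was 71.5, 44.6 and 63.5 FPKM in the SF pools and 68.2, 63.7 and 65.8 in the SM pools, and then 65.7, 67.7 and 59.8 in the CF pools and 70.1, 72.3 and 43.0 in the CM pools. The groups overlapped. The log2 differences of the genes other than Atf5 ran from -0.16 to 0.07 for SF minus SM and from 0.01 to 0.14 for CF minus CM. For Rtp1 the interval of 2 SE ran from -0.64 to 0.32 for SF minus SM and from -0.39 to 0.57 for CF minus CM. Rtp2 ranged from 70.3 to 104 FPKM in the SF pools, 82.9 to 91.7 in SM, 85.4 to 95.6 in CF and 51.5 to 102 in CM. Kdm1a was 14.1, 10.3 and 15.6 FPKM in the SF pools, 13.7, 13.3 and 15.2 in SM, 12.2, 13.4 and 11.8 in CF and 13.8, 14.0 and 7.65 in CM. In each of these genes a single pool made the SF and CM ranges wide, and all SM and CF pools lay inside the SF range. The housing differences of all 6 genes ran from -0.24 to 0.04.

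On the scales taken within a library, some groups did not overlap in the MOE. The ratio of Rtp1 to Rtp2 was 0.691, 0.634 and 0.621 in the SF pools and 0.744, 0.75 and 0.794 in the SM pools, so that each SM pool was above each SF pool. Rtp2 as percent of Omp was 9.31, 9.28 and 9.16% in SF against 8.63, 8.39 and 8.11% in SM. Rtp1 as percent of Omp was 6.69, 5.99 and 6.6% in CF against 7.0, 6.87 and 6.74% in CM. Each of these 3 differences had p = 0.1 in a two-sided exact permutation test (adjusted p = 0.6 over 18 tests, chosen after the values had been seen), the smallest that 3 pools against 3 allow. The other 15 tests were of groups that overlapped.

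Atf5 was the exception by size, though not by the adjusted test. It was 73.5, 31.2 and 74.3 FPKM in the SF pools and 96.4, 90.6 and 91.9 in the SM pools, against 92.1, 72.1 and 68.4 in the CF pools and 67.2, 64.6 and 81.6 in the CM pools. Each SM pool was above each SF pool, while CF and CM overlapped. The log2 difference for SF minus SM was -0.74 (SE 0.282, unadjusted p = 0.0182 and adjusted p = 1.0 by limma), and that of the sex effects between housings was -0.86 (SE 0.399, unadjusted p = 0.0468 and adjusted p = 0.999). Without SF pool 2, these values were -0.33 (unadjusted p = 0.16) and -0.45 (unadjusted p = 0.154). Without both SF pool 2 and CM pool 3 they were -0.33 (unadjusted p = 0.0179, adjusted p = 0.239) and -0.55 (unadjusted p = 0.00742, adjusted p = 0.0805), and with library weights -0.37 (adjusted p = 0.0742) and -0.60 (adjusted p = 0.0633). The 2 remaining SF pools still lay below the SM pools. Rtp2 turned direction with the same libraries. Its difference of sex effects in the MOE was -0.07 in the fit on all libraries, 0.43 without SF pool 2 and CM pool 3 (adjusted p = 0.0663), and 0.44 when libraries were weighted by their fit (adjusted p = 0.0426).

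**Figure D5:**
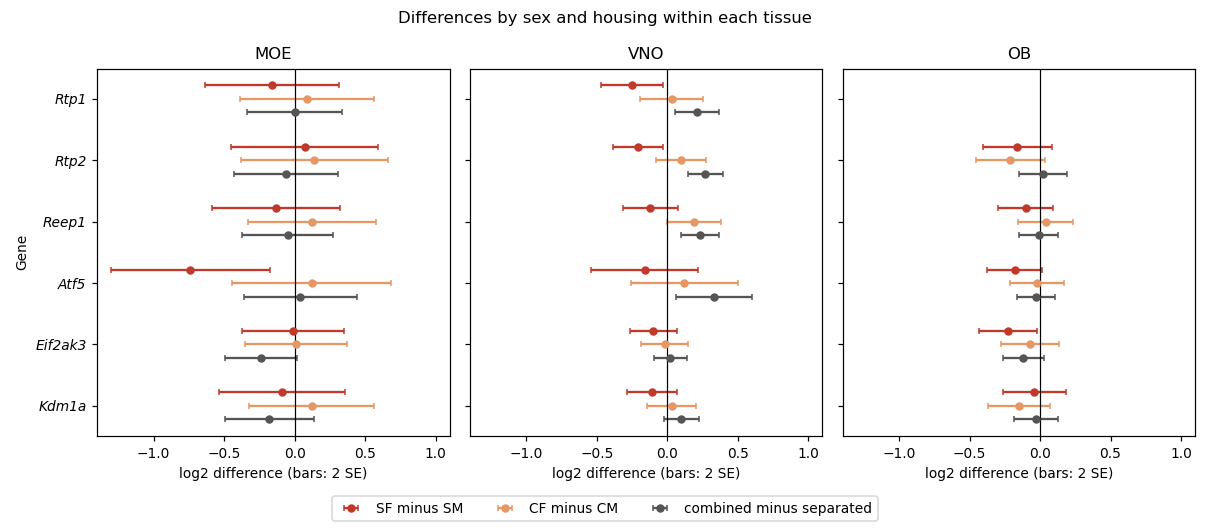
Log2 differences of the 6 genes by sex (SF minus SM, CF minus CM) and by housing (sex-combined minus sex-separated) in each tissue, as points with bars of 2 SE. Rtp1 was not tested in the OB. Bars are widest in the MOE, and the Atf5 point for SF minus SM there, at -0.74, is the farthest from 0.

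In the VNO, the 3 trafficking genes and Atf5 were higher in sex-combined mice by small amounts that did not pass the adjusted test. Rtp2 was 9.28, 9.78 and 11.3 FPKM in the SF pools, 12.1, 11.9 and 11.1 in the SM pools, 13.9, 14.3 and 12.8 in the CF pools and 12.8, 13.8 and 11.6 in the CM pools. The CF pools were above all SF and SM pools, and the SF pools were the lowest on average. The CM pools overlapped the SM pools, so that the housings overlapped. Reep1 was 4.99, 5.4 and 6.19 FPKM in SF, 6.32, 6.15 and 5.64 in SM, 7.19, 7.83 and 6.97 in CF and 6.29, 7.15 and 5.75 in CM. Here too the CF pools were above all SF and SM pools. Atf5 was 29.2, 21.1 and 29.0 FPKM in SF, 34.3, 23.7 and 31 in SM, 46.6, 30.1 and 34.4 in CF and 37.4, 35.4 and 28.3 in CM, with overlap throughout. The log2 difference of sex-combined minus sex-separated was 0.27 for Rtp2 (SE 0.0627, unadjusted p = 0.0011, adjusted p = 0.604), 0.23 for Reep1 (SE 0.068, adjusted p = 0.626), 0.21 for Rtp1 (SE 0.0782, adjusted p = 0.626) and 0.33 for Atf5 (SE 0.134, adjusted p = 0.626). The values for Eif2ak3 and Kdm1a were between 0.02 and 0.10. RNA integrity, as the study lists it, was mostly lower in the sex-combined VNO pools than in the sex-separated ones, and its part in these differences was not tested.

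Sex gave values of like size in the VNO. Rtp1 was 11.7, 10.8 and 12.3 FPKM in the SF pools against 16.3, 12 and 13.7 in the SM pools (log2 difference -0.25, SE 0.111, adjusted p = 0.56), and Rtp2 had a log2 difference of -0.21 (SE 0.0887, adjusted p = 0.559). Without SM pool 1, which has the highest Rtp1 level of the 12, the Rtp1 difference was -0.14. The difference of sex effects between housings was -0.31 for both Rtp2 and Reep1 (adjusted p = 0.894 for each). Markers of several cell types differed as well. Of the 12 marker lists, 4 did not overlap between SF and SM. Those of mature olfactory neurons, of plasma cells, and of bulb neurons and glia were lower in SF. That of bone and cartilage went the other way, at 112 to 157 summed FPKM in SF against 87.2 to 106 in SM. The summed FPKM of the 9 mature neuron markers in the VNO was 117 to 142 in the SF pools, 144 to 176 in SM, 146 to 183 in CF and 140 to 173 in CM, and that of 6 vomeronasal neuron markers was 132 to 147, 128 to 157, 150 to 157 and 141 to 161. That of the plasma cell markers was 14.1 to 17.5 in the SF pools, 32.1 to 50.7 in SM, 34.6 to 58.2 in CF and 31.2 to 45.6 in CM. Immature neuron markers were at 41.8 to 46.1 in the CF pools, above all SF and SM pools (34.2 to 38.3), as Rtp2 and Reep1 were. The part of the marked cell types in these differences was not tested.

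In the OB, the SM pools stood above the SF pools for Eif2ak3 and Atf5, by amounts that did not pass the test. Eif2ak3 was 3.59, 4.65 and 4.16 FPKM in the SF pools and 4.71, 5.31 and 4.73 in the SM pools, and Atf5 was 6.55, 6.38 and 6.64 against 7.78, 7.51 and 7.05. The log2 differences were -0.23 (SE 0.103, adjusted p = 1.0) and -0.18 (SE 0.0964, adjusted p = 1.0). Without SF pool 1 the Eif2ak3 difference was -0.14. Of the 12 marker lists, that of neutrophils alone separated the same groups without overlap, at 0.787 to 2.34 summed FPKM in the SF pools and 6.29 to 20.3 in the SM pools, and its part in the differences was not tested. Rtp2 was 0.454, 0.513 and 0.37 FPKM in the CF pools and 0.576, 0.647 and 0.561 in the CM pools, from 11.9 to 25 fragments each, with a log2 difference of -0.21 (SE 0.121, adjusted p = 0.871).

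The genes with levels most like those of each gene were ranked by Pearson's r on log2 values, among 6099 genes over the 12 MOE libraries and among 5782 over all 36. Over the 36 libraries, where tissue sets the order, the closest to Rtp1 were Glb1l2 (0.999), Ncapg2 (0.998) and Maats1 (0.997). For Rtp2 they were Stom (0.999), Galm (0.999) and Scn9a (0.998), and for Reep1 Golga7b (0.984), Scrn1 (0.984) and Rps6kc1 (0.983). Those closest to Atf5 were Ebf3 (0.988), Fam131c (0.986) and Trarg1 (0.985), of which Ebf3, one of the Ebf factors above, was 10.1 FPKM in the MOE, 3.75 in the VNO and 0.154 in the OB. Eif2ak3 was closest to Stat3 (0.975), Litaf (0.973) and Igf2r (0.972), and Kdm1a to Ist1 (0.946), Ppp1ca (0.945) and Wdr45 (0.938). The values of r were lowest for Kdm1a. Over the MOE libraries alone, Rtp1 was closest to Id4 (0.972), Celf4 (0.965) and Ak1 (0.965), Rtp2 to Ctxn3 (0.993), H2bc21 (0.991) and Suds3 (0.990) and Reep1 to Dazap2 (0.982), Mcf2l (0.976) and Txnrd1 (0.976). Atf5 was closest to Cacna1h (0.980), Irf2bpl (0.970) and Palm (0.970), Eif2ak3 to Acad8 (0.979), Dus1l (0.971) and Ss18 (0.970) and Kdm1a to Sdhb (0.988), Wdr47 (0.984) and Srsf3 (0.984). All of these points share libraries and depth, and in the MOE also SF pool 2 and CM pool 3. No gene was among the 3 closest of more than 1 of the 6 in either ranking.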

How the data were processed

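Total RNA depleted of ribosomal RNA was sequenced from 36 pools as stranded paired-end libraries of 50 bases per end. Per the labels and the submitters' processing notes, the authors aligned reads to mm9 with TopHat2 2.1.0, and the deposited files hold FPKM per RefSeq transcript and locus with confidence limits from Cufflinks 2.2.1.0, while Cuffdiff served for comparisons that are not used here. Whether strand was used in counting is not given in the sources used here.

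FPKM values were summed by gene symbol (99.4% of entries had one), leaving out genes with an entry not marked OK (5 in MOE, 1 in VNO, 1 in OB). The number of fragments behind a value was estimated by dividing the FPKM by its standard error and squaring, with the limits taken as 2 standard errors. The limits need not hold counting error alone, since 63.8% of entries under 4.5 fragments came out whole within 0.02 and the others did not. The estimates do not cover the spread between pools. The floor was 3 fragments.

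Comparisons used limma 3.58.1 in R 4.3.3 (lmFit, eBayes with trend) on log2(FPKM + 0.5), keeping genes whose mean FPKM reached 0.5. There was 1 fit per tissue (12 libraries, 4 groups) and 1 fit over all 36 (12 groups) for the tissues, so that p-values measure the spread between pools. The fit over all 36 and the permutation tests between tissues treat libraries of different tissues as independent. The paper states, however, that all 3 tissues were taken from each mouse. A call is an adjusted p under 0.05 (Benjamini-Hochberg). The fit was tested on simulated data. Ratios were compared by permutation with scipy 1.17.1. Alternatives were pseudocounts of 0.1 and 1, no filter, 2 scalings, library weights, the highest transcript alone, scaling to neuron markers, fits on only the libraries compared, a replicate block and each library left out. The bar for pairing same-numbered libraries was that the deviations of all 3 pairs from their group means correlated over 0.1. It was met in the VNO for SF with SM (0.165, 0.202 and 0.314) and for SF with CF (0.127, 0.346 and 0.162), and for no other 2 groups of a tissue. The main fits used no pairs, and the replicate number entered only as the block among the alternatives. The labels do not say that the numbers mark shared mice or days.

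The members, the 5 gene lists and the 12 marker lists were chosen with earlier results of these data known. Named are the 6 members throughout, with sex and housing differences where the unadjusted p was under 0.05 or groups did not overlap, the genes most like each, and up to 2 genes at either end of each list per tissue comparison. Other list and marker genes were named after their values were seen.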

Additional observations from a re-analysis of the deposited data

How the results depend on the processing

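For the 6 genes, 1493 of 1510 values under an alternative kept their direction and their side of the threshold. The tissue differences of Rtp1, Rtp2, Reep1, Atf5 and Eif2ak3 did so under all alternatives run. Kdm1a did not. Its difference for MOE minus OB (-0.07) passed the test after quantile normalization (-0.07, adjusted p = 0.0357) and turned to 0.07 with library weights, 0.29 with only the highest transcript and 0.04 without SF pool 2 and CM pool 3, a choice made after the data were seen. With each library left out it ran from -0.10 to 0.00. For MOE minus VNO (0.33) Kdm1a was 0.04 after upper quartile scaling and turned to -0.02 after quantile normalization. For VNO minus OB (-0.40) it was -0.05 after quantile normalization and -0.02 with only the highest transcript. The cause was not tested.

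Among sex and housing comparisons, 1 gene passed under 1 alternative, namely Rtp2 for the difference of sex effects in the MOE with library weights (0.44 against -0.07). That value also turned to 0.10 after quantile normalization, 0.04 after upper quartile scaling, 0.20 relative to neuron markers and 0.43 without both low MOE libraries, and ran from -0.24 to 0.25 with each library left out. Counts over all genes moved too. Library weights called 2417 genes there against 5, 1817 against 14 (MOE, SF minus SM), 1402 against 5 and 682 against 6 (OB, both sex comparisons), 406 against 1 (OB, difference of sex effects) and 116 against 1 (OB, housing). Without both low MOE libraries the first count was 277. All other counts by sex or housing were at most 48. The replicate number as a block (replicate block) gave -0.74 for Atf5 in the MOE (SF minus SM) and changed no call. In the VNO, where SF and SM numbers met the bar for pairing, it gave -0.25 for Rtp1 (adjusted p = 0.508) and -0.21 for Rtp2 (adjusted p = 0.526). Within tissues, 16 of 54 same-numbered pairs correlated over 0.1, and 12 of 36 across tissues. In the OB, Rtp2 fell below the filter when SM pool 2 or CM pool 2 was left out, and has no value there. Few fragments limit Rtp1 and Rtp2 in the OB, and 3 pools per group limit all sex and housing comparisons.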
